A study of Mus musculus with 23 samples.

Results

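The cells described here are those that carried the least antibody fluorescence after dosing mice with either of 2 brain-directed antibody vehicles: the negative sort bins of the ATV-TfR and ATV-CD98hc animals. Members were all barcodes of the 4 libraries titled as negative bins of these vehicles (pools 1 and 2 of each) that had at least 500 genes, at least 800 UMIs (unique molecular identifiers, 1 per captured RNA molecule) and at most 10% mitochondrial UMIs. That filter kept 25798 barcodes, of 249715 in all 23 libraries of the series, and 24637 cells remained after predicted doublets were taken out. The single negative library of the control IgG animals (pool 2, 11255 cells) was classified with them and is given as a value with no test.

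ATV-TfR was given to TfR mu/hu knock-in mice, which carry a part-human transferrin receptor gene. ATV-CD98hc was given to CD98hc mu/hu knock-in mice, which carry a part-human CD98 heavy chain gene, and the controls were C57BL/6J mice dosed with an IgG control. The labels give the age of all mice as 12 weeks in one field and as 3.3 months in another. They received 45 mg/kg of Alexa Fluor 647-coupled antibody by vein, and brains without olfactory bulbs, cerebellum, pons and medulla were taken after 24 h and perfusion with PBS. Live dissociated cells, freed of myelin and kept in transcription and translation inhibitors, were sorted into 4 fluorescence bins with gates set on the ATV-TfR animals, and each library pooled 1 male and 1 female mouse. Vehicle and genotype coincide in this design, so their parts in any difference cannot be told apart. The p-values rest on 2 such pools per group. Their spread is estimated in part from the other classes or genes of the same test. A small p-value is therefore not a measure of how well the pools agree for 1 class or gene alone.

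The transferrin receptor (TfR, gene Tfrc) carries iron-loaded transferrin into cells and is abundant on brain capillary endothelium. CD98hc (gene Slc3a2) is the heavy chain that brings amino acid carriers such as LAT1 to the membrane and is found on endothelium and on many other brain cells. An antibody transport vehicle (ATV) has an Fc region engineered to bind one of these receptors, by which it crosses the blood-brain barrier, so a cell in the negative bin is one with little bound or internalised vehicle at the time of sorting.

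The 4 libraries held 3359 to 8469 cells at a median of 3567 to 4217 UMIs per cell, and 14533000 to 42820924 UMIs in all. Between any pair of these 4 libraries and the control library, 3 to 23 cell barcodes were shared, at most 0.361% of the smaller library. Clusters were named from marker lists, as "X-like", and 9 classes had the 20 cells per library needed for tests of expression. The microglia-like class carried its own 8 markers at a summed 17769 to 20991 CPM in the 4 libraries (CPM: UMIs of a gene per 1000000 UMIs of the class in that library), and the smooth muscle-like class its own at 43160 to 54908. Clusters left unnamed held 1.74 to 3.33% of a library.

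The unlabelled cells of the ATV-CD98hc mice were mostly astrocyte-like, while those of the ATV-TfR mice held microglia-like, astrocyte-like and oligodendrocyte-like cells in more even parts. Astrocyte-like cells, the glia that wrap vessels and synapses, made up 19.03% and 30.67% of the ATV-TfR pools and 55.5% and 55.6% of the ATV-CD98hc pools, against 44.8% in the control IgG library. The groups did not overlap, and the edgeR log2 difference, ATV-TfR minus ATV-CD98hc, was -1.16 (SE 0.26, adjusted p = 7.3e-04, n = 2 pools each). Microglia-like cells, the resident macrophages of brain tissue, made up 33.0% and 22.9% with ATV-TfR and 10.3% and 7.29% with ATV-CD98hc (log2 difference 1.66, edgeR adjusted p = 4.0e-05), with 8.97% in the control library. Of 10 classes, 6 (60%) passed edgeR's adjusted p of 0.05.

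Among the vessel-wall and border classes, fibroblast-like cells took 1.89% and 1.98% of the ATV-TfR pools and 0.528% and 0.774% of the ATV-CD98hc pools (log2 difference 1.61, edgeR adjusted p = 3.8e-04). Smooth muscle-like cells, the contractile cells of arterioles, took 7.53% and 8.02% against 3.96% and 4.32% (0.91, edgeR adjusted p = 0.0073). Ependymal-like cells, the ciliated lining of the ventricles, took 1.23% and 1.62% against 0.497% and 0.923% (1.07, edgeR adjusted p = 0.0081). In each of these 3 classes both ATV-TfR pools lay above both ATV-CD98hc pools. Pericyte-like cells, the mural cells of capillaries, took 11.0% and 9.87% against 5.44% and 8.13%; their log2 difference of 0.63 (edgeR adjusted p = 0.046) turned to -0.13 among cells outside the astrocyte-like class and to -0.24 with TMM factors over the classes.

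Endothelial-like cells were scarce in the unlabelled cells of both vehicles, at 1.51% and 1.38% with ATV-TfR and 1.31% and 1.73% with ATV-CD98hc. They made up 22.6% of the control IgG library (exact 95% interval 21.9 to 23.4%, counting error only). The vehicle groups overlapped (edgeR log2 difference -0.05, adjusted p = 0.98), but among cells outside the astrocyte-like class the difference was -0.80 (edgeR adjusted p = 0.047). With TMM factors over the classes it was -0.91 (edgeR adjusted p = 0.021). Without the 4 clusters of low UMI number, left out after seeing the data, it was 0.15. Oligodendrocyte-like cells took 20.0% and 18.6% against 18.01% and 16.25%, a log2 difference of 0.17 (edgeR adjusted p = 0.64) that turned to -0.58 outside the astrocyte-like class (edgeR adjusted p = 0.070) and to -0.69 with TMM factors (adjusted p = 0.031). Choroid plexus epithelial-like cells, which make cerebrospinal fluid, took 1.83% and 1.85% against 2.24% and 1.34% (0.0083, edgeR adjusted p = 0.98). This turned to -0.75 outside the astrocyte-like class (edgeR adjusted p = 0.047) and to -0.86 with TMM factors (adjusted p = 0.021), and both passed. T or NK cell-like cells took 0.425% and 0.549% against 0.295% and 0.268% (0.76, edgeR adjusted p = 0.11), which turned to -0.10 with TMM factors. They passed with at least 1000 genes and 1500 UMIs per cell (1.12, edgeR adjusted p = 0.021). Without the clusters of low UMI number they passed as well (0.95, edgeR adjusted p = 0.026). With animals as replicates they also passed (1.19, edgeR adjusted p = 0.020), but that setting counts the 2 mice of a library as independent. The ATV-CD98hc pools held 19 and 9 cells of this class.

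**Figure D1:**
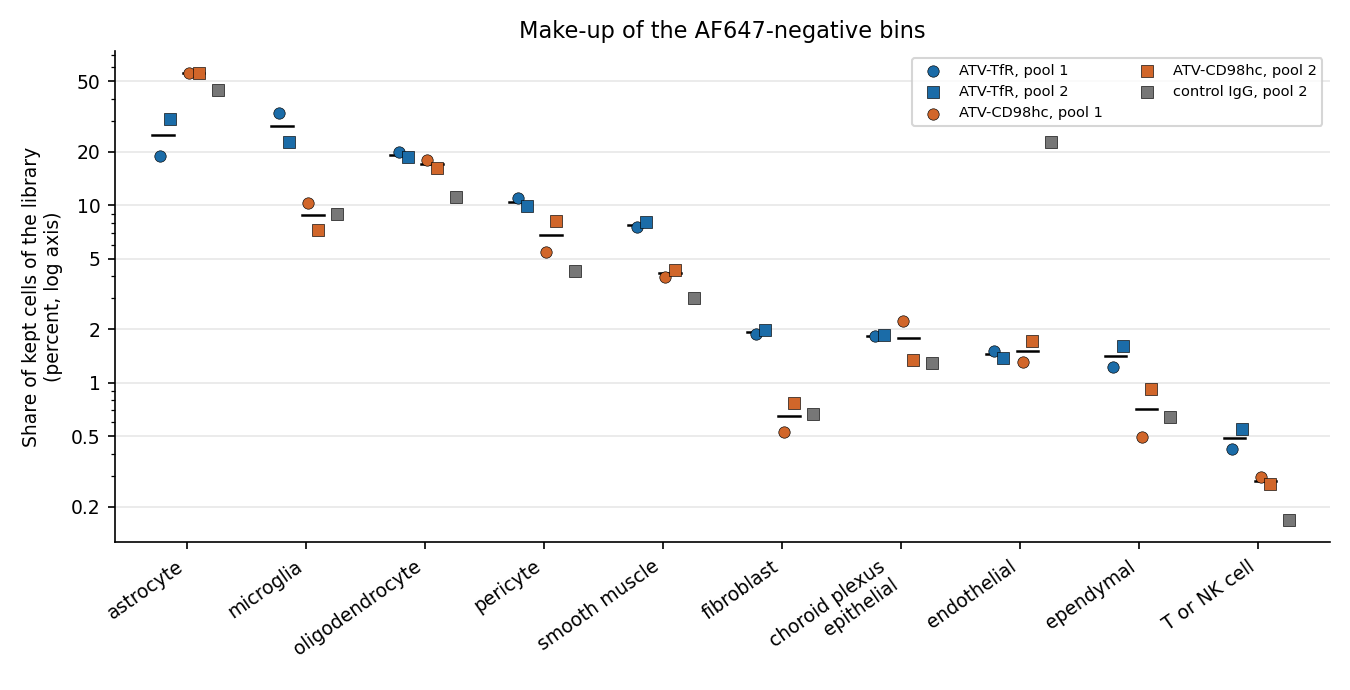
Share of each class among the kept cells of a library, in percent on a log axis, with 1 point per library (circle pool 1, square pool 2) and a bar at the mean of each vehicle's 2 pools. Astrocyte-like points at 19.03 and 30.67% (ATV-TfR) lie below 55.5 and 55.6% (ATV-CD98hc), the microglia-like order is the opposite, and the control IgG point stands apart for endothelial-like cells at 22.6%.

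The shares of a library sum to a whole, so a class's change is relative to the others. Outside the astrocyte-like class, microglia-like cells (0.89, edgeR adjusted p = 0.030) and fibroblast-like cells (0.86, adjusted p = 0.047) were still higher with ATV-TfR (with TMM factors over the classes 0.79, edgeR adjusted p = 0.021, and 0.75, adjusted p = 0.056), whereas smooth muscle-like (0.16) and ependymal-like cells (0.32) no longer passed. When pool 1 of ATV-TfR was left out no class passed (lowest edgeR adjusted p = 0.0955), and likewise without pool 2 of ATV-TfR (0.0661); a lone library is then taken to vary like the other group's. Without pool 1 of ATV-CD98hc 4 classes passed, and ependymal-like (0.61, edgeR adjusted p = 0.14) and pericyte-like cells (0.36, adjusted p = 0.18) did not. Among female cells alone ependymal-like cells did not pass either (0.53, edgeR adjusted p = 0.43). The median mitochondrial share was 2.05% and 2.40% of UMIs in the ATV-TfR pools and 3.29% and 2.77% in the ATV-CD98hc pools, and its part in these shares was not tested.

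Among negative-bin cells, the gene of each vehicle's target was lower in those from mice given that vehicle, in 3 classes for Tfrc and 4 for Slc3a2. These cells were sorted for low vehicle fluorescence, and the part of that sort in the difference was not tested. Tfrc (ENSMUSG00000022797, GRCm38 chr16:32608920-32632794, plus strand) was lower with ATV-TfR in astrocyte-like, oligodendrocyte-like and endothelial-like cells. Slc3a2 (ENSMUSG00000010095, chr19:8706882-8723369, minus strand) was lower with ATV-CD98hc in astrocyte-like, oligodendrocyte-like, choroid plexus epithelial-like and endothelial-like cells. Both were left out of the clustering. How reads from the human part of the knock-in genes were counted is not given in the sources used here, so a level in a knock-in mouse may leave out transcripts of that allele.

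In endothelial-like cells Tfrc stood at 52.3 and 51.7 CPM in the ATV-TfR pools, at 196 and 161 in the ATV-CD98hc pools and at 518 in the control library. ATV-CD98hc thus lay above both ATV-TfR pools and below the control (edgeR log2 difference -1.79, SE 0.29, adjusted p = 1.5e-04). The make-up of the class followed the same order. Its cluster 20 held 32.0% and 33.0% of it with ATV-TfR, 67.9% and 60.3% with ATV-CD98hc and 97.25% in the control. The part of this in the order of the Tfrc levels was not tested. In astrocyte-like cells Tfrc stood at 24.2 and 23.9 against 53.7 and 44.9, with 64.3 in the control library (-1.04, SE 0.14, edgeR adjusted p = 0.0072). In oligodendrocyte-like cells it stood at 16.5 and 19.2 against 37.6 and 33.7 (-1.002, edgeR adjusted p = 0.042). This last call was lost without any of the 4 libraries: without ATV-TfR pool 1 (-0.86, edgeR adjusted p = 1), ATV-TfR pool 2 (-1.10, 0.16), ATV-CD98hc pool 1 (-0.92, 0.22) or ATV-CD98hc pool 2 (-1.04, 0.078).

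Tfrc was lower, without passing, in microglia-like cells at 4.91 and 7.80 against 9.36 and 8.88 CPM (edgeR log2 difference -0.59, adjusted p = 1). In smooth muscle-like cells it stood at 19.02 and 17.0 against 34.4 and 20.3 (-0.66, edgeR adjusted p = 0.67). In pericyte-like cells the groups overlapped, at 14.2 and 8.11 against 32.6 and 13.6. Within endothelial-like cluster 20 alone, the cluster led by Slco1a4 and Cldn5, the log2 difference was -1.27 (edgeR adjusted p = 0.13).

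Slc3a2 separated the groups in 9 of the 9 classes tested, with both ATV-TfR pools above both ATV-CD98hc pools, and passed in 4 (in these classes 11.7 to 20.7% of all genes tested lay above in the same way); its log2 differences ran from 0.93 to 1.65 with a median of 1.46. In astrocyte-like cells it stood at 302 and 286 CPM with ATV-TfR, at 123 and 151 with ATV-CD98hc and at 262 in the control library (1.10, SE 0.14, edgeR adjusted p = 0.0061). The 2 ATV-TfR pools lay close to each other and above the control. In endothelial-like cells it stood at 281 and 293 against 83.2 and 128, with 467 in the control (1.51, edgeR adjusted p = 0.0012), a call that was lost without ATV-CD98hc pool 1 (1.14, edgeR adjusted p = 0.057) and with DESeq2 (adjusted p = 0.064). The control library lay closer to the mean of the ATV-TfR pools than to that of the ATV-CD98hc pools in each of the 9 classes, although in microglia-like cells, at 168.5, it lay nearer to ATV-CD98hc pool 2 (138) than to either ATV-TfR pool (203 and 221).

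In oligodendrocyte-like cells Slc3a2 stood at 68.1 and 78.3 against 22.95 and 32.06 CPM (edgeR log2 difference 1.47, adjusted p = 0.014; without ATV-CD98hc pool 1, 1.19, adjusted p = 0.13). In choroid plexus epithelial-like cells it stood at 82.8 and 98.35 against 34.6 and 18.05 (1.65, edgeR adjusted p = 0.0055). That call was lost without ATV-TfR pool 1 (1.84, edgeR adjusted p = 0.22) and without ATV-TfR pool 2 (1.51, 0.97), with DESeq2 (adjusted p = 0.093) and with animals as replicates (edgeR adjusted p = 0.16). In fibroblast-like cells it stood at 602 and 504 against 163 and 242, which did not pass (1.46, edgeR adjusted p = 0.19).

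**Figure D2:**
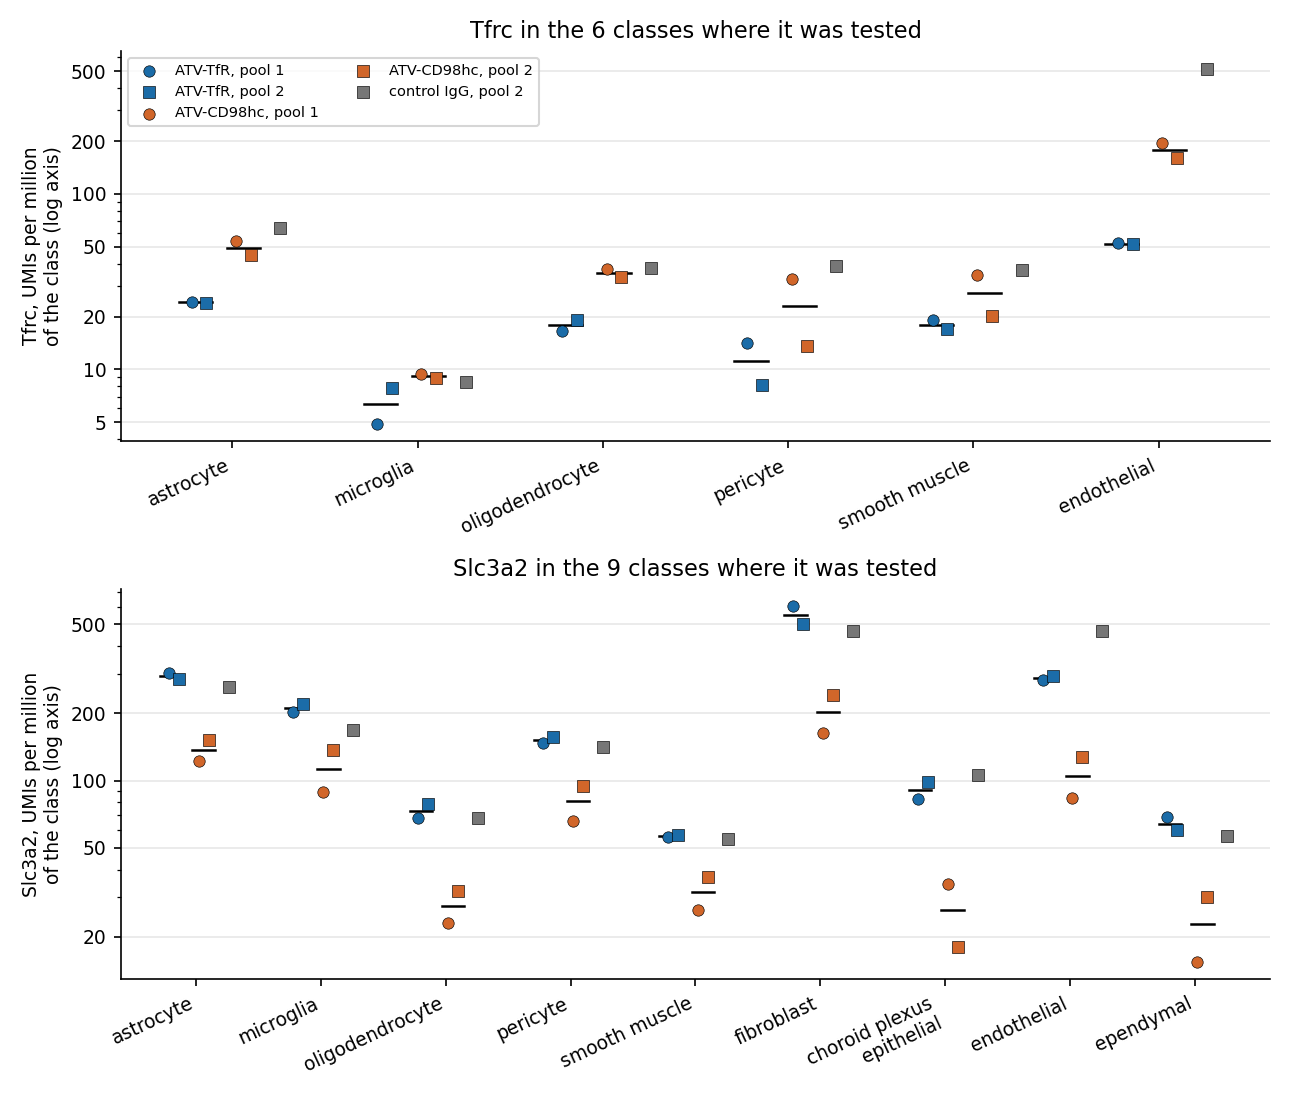
CPM of Tfrc (upper panel, 6 classes) and Slc3a2 (lower panel, 9 classes) summed over the cells of a class in each library, on log axes, with 1 point per library and a bar at the mean of each vehicle's pools. Tfrc lies lower in the ATV-TfR pools in 5 of its 6 classes, most in endothelial-like cells (52.3 and 51.7 against 196 and 161), and overlaps in pericyte-like cells, and Slc3a2 lies lower in the ATV-CD98hc pools in each class shown.

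In the fixed lists around the 2 receptors, little else passed. Of 12 iron uptake genes tested in astrocyte-like cells, Tfrc alone was called (0.593% of all genes were), and the list's median log2 difference was 0.0013 beside -0.0032 over all 13822 genes tested. Of 8 iron storage and export genes none was called by edgeR, with a median of 0.028; Fth1, the ferritin heavy chain, stood at 1534 and 1521 against 1335 and 1602 CPM. Of 12 genes for CD98hc, its light chains and other amino acid carriers, Slc3a2 and Slc38a2 passed as higher with ATV-TfR (0.535% of all genes did), and the list's median was 0.26. Slc38a2, a neutral amino acid carrier that rises when amino acids are short, stood at 23.6 and 25.95 against 10.1 and 12.4 (1.16, edgeR adjusted p = 0.013), while Slc7a5, the LAT1 light chain, overlapped at 26.6 and 27.9 against 22.6 and 29.3. Of 14 amino acid and integrated stress response genes, none was called, with a median of 0.098.

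Astrocyte-like cells of the 2 vehicles otherwise differed in 82 of 13822 genes (0.593%), 74 higher with ATV-TfR (0.535%) and 8 lower (0.0579%). Among genes with at least 50 CPM, Gria4, an AMPA-type glutamate receptor subunit, stood at 128 and 95.45 with ATV-TfR and 58.95 and 32.6 with ATV-CD98hc (log2 difference 1.26, edgeR adjusted p = 0.022). Pde10a, a phosphodiesterase best known from striatal neurons, stood at 81.5 and 80.5 against 38.0 and 41.1, with 37.0 in the control library (1.04, SE 0.13, edgeR adjusted p = 0.0061). For Pde10a the control library lay with the ATV-CD98hc pools, and both ATV-TfR pools lay above. Grm5, the metabotropic glutamate receptor 5, stood at 102 and 104 against 63.6 and 47.8 (0.88, edgeR adjusted p = 0.021). Nmnat2, an NAD-synthesising enzyme, stood at 58.9 and 47.9 against 34.9 and 25.1 (0.81, edgeR adjusted p = 0.048).

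Lower with ATV-TfR were Rpe65, a retinoid isomerase, at 43.9 and 41.3 against 66.8 and 91.8 CPM (edgeR log2 difference -0.89, adjusted p = 0.025). Nnat, a small membrane protein of the developing brain, stood at 306 and 256 against 461 and 506, with 531 in the control library (-0.79, edgeR adjusted p = 0.026). Adam23, a non-catalytic disintegrin, stood at 113.7 and 107.5 against 165.5 and 180.8 (-0.65, edgeR adjusted p = 0.040), and Enox1 at 35.4 and 33.5 against 54.6 and 58.4 (-0.71, adjusted p = 0.028). These 8 genes were named because they passed and their groups did not overlap. With DESeq2 Gria4 did not pass, with doublets kept Nnat did not, and with at least 50 UMIs in each library of 1 group Adam23 and Nmnat2 did not. Nnat, Enox1 and Adam23 were lost without ATV-TfR pool 1 (-0.895, -0.73 and -0.67) and without ATV-TfR pool 2 (-0.68, -0.69 and -0.62), Nmnat2 without ATV-TfR pool 1 (0.68) and Rpe65 without ATV-TfR pool 2 (-0.86, edgeR adjusted p = 0.055). In the largest astrocyte-like cluster alone (cluster 3), Gria4, Grm5, Nmnat2, Nnat and Adam23 did not pass, and Gria4's log2 difference was 0.40. Cluster 3 made up 39.5% and 42.2% of the astrocyte-like cells with ATV-TfR and 46.2% and 55.6% with ATV-CD98hc, and cluster 8, which Sntg1, Cyp26b1 and Grm5 mark, 19.7% and 15.9% against 12.0% and 5.99%. Without ATV-TfR pool 1, 33 of the 82 calls were lost, and without ATV-CD98hc pool 1, 18. The number called in all was 125 without ATV-TfR pool 2, 275 without ATV-CD98hc pool 1 and 742 without ATV-CD98hc pool 2.

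No member of the fixed lists of astrocyte function and region passed. Of 9 genes of non-telencephalic astrocytes, 5 lay above in both ATV-TfR pools (14.9% of all genes did), with a median log2 difference of 0.26, and of 7 genes of telencephalic astrocytes 3 lay below (16.2% of all genes did), with a median of -0.16. Of 10 endfoot and gap junction genes none was called by edgeR, with a median log2 difference of -0.059: Aqp4, the endfoot water channel, overlapped at 634 and 599 against 657 and 623 CPM. Of 11 reactive astrocyte genes none was called (median -0.070), and Gfap, their best known member, overlapped at 47.1 and 25.8 against 28.6 and 25.9. Of 9 interferon-stimulated genes none was called (median -0.064). Over all 13822 genes the median was -0.0032.

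Most genes that were higher in the astrocyte-like cells of ATV-TfR mice had their highest level in another class. Of the 74, 3 had it in the astrocyte-like class itself and 51 in the microglia-like class, where 18.01% of the genes tested have theirs, and only 6 of the 74 reached 50 CPM. Of 13 homeostatic microglia genes tested in astrocyte-like cells 6 passed as higher (0.535% of all genes did), with a list median of 1.12. Csf1r, the receptor for the microglial growth factor CSF1, stood at 12.7 and 9.12 against 2.51 and 3.56 (1.90, edgeR adjusted p = 0.0099). Gpr34 stood at 7.27 and 6.71 against 1.19 and 1.99 (2.23, edgeR adjusted p = 0.011), and Fcer1g, the signalling chain of Fc receptors, at 9.93 and 8.99 against 3.44 and 3.70 (1.41, edgeR adjusted p = 0.022).

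The 8 microglia markers summed to 174 and 130 CPM in the astrocyte-like cells of the ATV-TfR pools and to 98.1 and 111 in those of the ATV-CD98hc pools. The control library, at 125, lay above both ATV-CD98hc pools and below both ATV-TfR pools. None of the 8 was at 0 in any library. In microglia-like cells the same sum was 17769 or more in the 4 vehicle libraries. The ATV-TfR pools also held the larger share of microglia-like cells, and the part of this in the 51 genes was not tested.

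**Figure D3:**
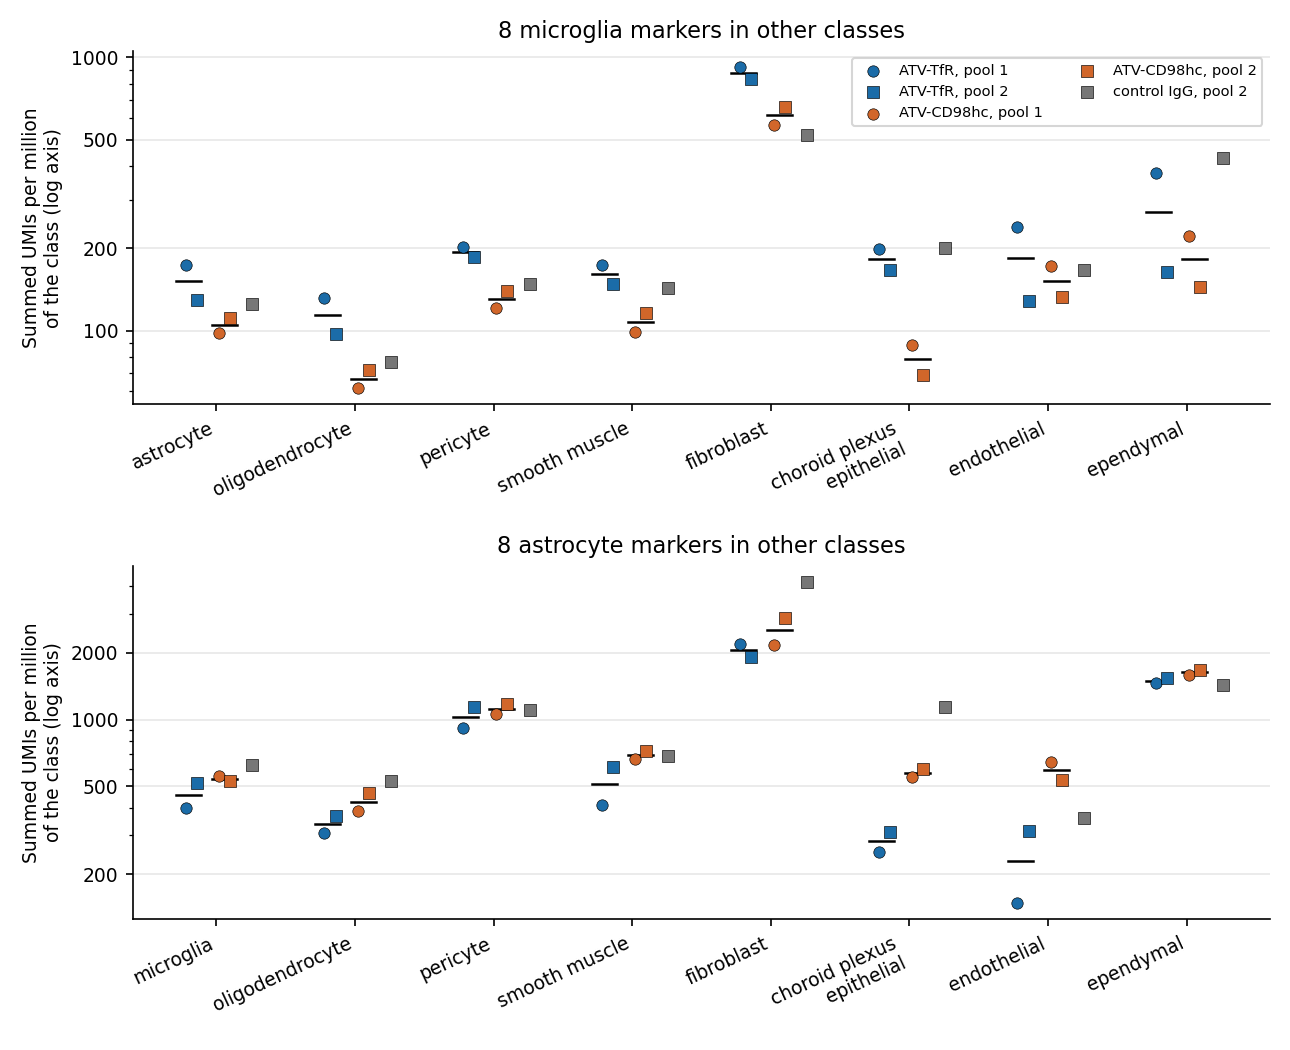
Summed CPM of 8 microglia markers (upper panel) and 8 astrocyte markers (lower panel) in the classes they do not define, on log axes, with 1 point per library and a bar at the mean of each vehicle's pools. Microglia markers lie higher with ATV-TfR in astrocyte-like cells (174 and 130 against 98.1 and 111). Astrocyte markers lie higher with ATV-CD98hc in choroid plexus epithelial-like and endothelial-like cells. They do so too in smooth muscle-like, microglia-like (553.4 and 525.6 against 397.5 and 515.9) and oligodendrocyte-like cells (384.2 and 468 against 306.9 and 366.4), and overlap in pericyte-like cells.

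In microglia-like cells themselves no gene passed in the test used for all classes. Of 11444 genes tested with edgeR, 0 passed (0%), 485 had an unadjusted p below 0.05, and DESeq2 also called 0. With the 2 animals of each pool as replicates, edgeR called 9, with the pool number as a block 38, with doublets kept 36, and with no filter on low counts 41. With 1 library left out it called 5 (ATV-TfR pool 1), 17 (ATV-TfR pool 2), 17 (ATV-CD98hc pool 1) and 113 (ATV-CD98hc pool 2). Of 14 homeostatic genes the log2 differences ran from -0.045 to 0.22 with a median of 0.049, beside 0.0045 over all genes. P2ry12, the purinergic receptor that marks resting microglia, stood at 2397 and 2368 CPM against 2406 and 2517.

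Of 15 activated microglia genes none was called (median 0.086). Apoe, not called either, stood at 561 and 862 CPM with ATV-TfR, and its 1904 in 1 ATV-CD98hc pool is the value of a single library. Of 8 Fc receptor and antibody-binding genes none was called (median 0.098). Fcgr3, a low-affinity Fc receptor, stood at 671 and 652 against 536 and 688. Slc3a2, at 203 and 221 against 88.5 and 138, had the log2 difference 0.98 (edgeR adjusted p = 0.28).

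Oligodendrocyte-like cells differed in 15 of 11942 genes (0.126%), 9 higher with ATV-TfR (0.0754%) and 6 lower (0.0502%). Of 12 myelin genes none was called by edgeR, and the median log2 difference was 0.012 beside -0.0055 over all genes. Mog stood at 1763 and 1760 CPM against 1500 and 1723. Sgk1, a kinase induced by glucocorticoids, stood at 220 and 298 with ATV-TfR and at 107 and 127 with ATV-CD98hc, with 202 in the control library (1.17, edgeR adjusted p = 0.036). The call was lost without any of the 4 libraries (edgeR log2 difference 0.94 to 1.39). Hspa1a, an inducible heat shock protein, stood at 18.9 and 31.1 against 9.79 and 8.01 (1.44, edgeR adjusted p = 0.042). That call was lost without ATV-TfR pool 2 (1.07), ATV-CD98hc pool 1 (1.61) or ATV-CD98hc pool 2 (1.36), and with DESeq2 (adjusted p = 0.062).

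Of the 9 genes higher with ATV-TfR in oligodendrocyte-like cells, 7 had their highest level in microglia-like cells, where 19.07% of the genes tested have theirs, among them C1qa, C1qb and Fcer1g. The homeostatic microglia list had 0 of 13 called and a median of 1.37, and the 8 microglia markers that name clusters summed to 132 and 97.0 against 61.6 and 72.1 CPM. Lower with ATV-TfR were Ntm at 13.5 and 24.1 against 43.7 and 62.1 (edgeR log2 difference -1.47, adjusted p = 0.034) and Gpc5 at 17.8 and 30.5 against 54.5 and 67.3 (-1.32, adjusted p = 0.034), both cell-surface proteins whose level was highest in astrocyte-like cells. Hbb-bs, a globin gene, was called although its groups overlapped, since 1 library held it at 355 (ATV-CD98hc pool 1) and the other 3 at 0.80 to 1.59. Without ATV-CD98hc pool 1, 14 of the 15 calls were lost, without ATV-CD98hc pool 2 13, without ATV-TfR pool 1 10, and without ATV-TfR pool 2 4. The number called in all was then 1, 5, 15 and 39.

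In endothelial-like cells the unlabelled remainder differed between vehicles in genes of 1 vessel type. Genes of fenestrated endothelium, the leaky kind found in choroid plexus and circumventricular vessels, were higher with ATV-TfR: 6 of 7 passed and 7 of 7 separated the pools (18.9% of all genes did so in this direction), with a list median of 1.11 beside 3.1e-04 over the 6860 genes tested. The list was chosen with earlier results of these data known. Its members Plvap, Igfbp3, Cd24a, Esm1 and Kdr are also leading genes of cluster 17 of this class, so these counts are not independent support. With DESeq2 Esm1 alone of the 6 passed (adjusted p = 3.4e-04), and with doublets kept Esm1 and Plvap did. Of the 6860 genes tested, 68 were called (0.991%), 41 higher with ATV-TfR (0.598%) and 27 lower (0.394%). Plvap, the diaphragm protein of fenestrae (GRCm38 chr8:71497765-71511752), stood at 1221 and 902 CPM with ATV-TfR, at 187 and 433 with ATV-CD98hc and at 32.8 in the control library (1.84, SE 0.29, edgeR adjusted p = 1.2e-04). With 1 library left out its log2 difference ran from 1.27 to 2.52.

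Esm1, a proteoglycan of sprouting and fenestrated endothelium (chr13:113209659-113218098), stood at 283 and 108 against 20.8 and 11.1, with 3.97 in the control (3.51, SE 0.46, edgeR adjusted p = 2.0e-06, and 2.66 to 4.11 with 1 library left out). Igfbp3, an insulin-like growth factor binding protein, stood at 638 and 628 against 116 and 283 (1.76, edgeR adjusted p = 1.8e-04, and 1.13 to 2.46 with 1 library left out). Kdr, the VEGF receptor 2, stood at 1026 and 788 against 460.5 and 444 (1.005, edgeR adjusted p = 0.027). That last call was lost without ATV-TfR pool 1 (0.82, edgeR adjusted p = 1) and without ATV-TfR pool 2 (1.18, 0.37).

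Penk, the proenkephalin gene, had 53 UMIs in the ATV-TfR pools and 2 in the ATV-CD98hc pools, a ratio of 14.3 in CPM (exact 95% interval 3.76 to 121, counting error only). Its edgeR log2 difference of 3.71 (adjusted p = 0.0031) ran from 3.09 to 7.38 with 1 library left out. The Penk call was lost with DESeq2 and with doublets kept. Of 10 arterial genes, Fbln5, an elastic fibre protein, passed as higher (0.598% of all genes did). It stood at 243 and 251 against 116 and 105 (1.15, edgeR adjusted p = 0.017). That call was lost without ATV-TfR pool 1 (1.197, edgeR adjusted p = 0.22), ATV-TfR pool 2 (1.125, 0.30) or ATV-CD98hc pool 1 (1.198, 0.060), with DESeq2 (0.35) and with doublets kept (0.23). Of 9 capillary genes Tfrc alone passed as lower with ATV-TfR (0.394% of all genes did), and the list's median was -0.49. Mfsd2a, the lipid carrier of barrier capillaries, stood at 55.9 and 51.7 against 98.0 and 116, with 313 in the control (-0.95, edgeR adjusted p = 0.19).

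The class rested on 58 to 128 cells per library and on 3 clusters that the vehicles filled unequally, clusters drawn from the same genes, so their make-up and the values above are 1 measurement. Cluster 17, led by Plvap and Igfbp3, held 36.7% and 30.7% of the class with ATV-TfR, 9.52% and 13.8% with ATV-CD98hc and 0.864% in the control library. Cluster 20, led by Slco1a4 and Cldn5, held 32.0% and 33.0% against 67.9% and 60.3%, and 97.3% in the control, and cluster 19, with Gkn3, Pi16 and Bmx, held 31.25% and 36.4% against 22.6% and 25.9%, and 1.885% in the control. Of all kept cells of a library, cluster 17 held 0.555% and 0.4235% with ATV-TfR and 0.1243% and 0.2382% with ATV-CD98hc. The control library, at 0.1955%, lay between the ATV-CD98hc pools on that scale. Within cluster 20 alone Igfbp3 differed by 0.027, Kdr by 0.30 and Nrp1 by -0.11 on the log2 scale, and Plpp3, another of the 7 fenestrated genes, by -1.50 (edgeR adjusted p = 0.35) where the whole class gave 0.88. In that cluster 3 genes were called (Slc3a2 1.69, Ptgds 3.16, Ttr -1.64). Without ATV-TfR pool 1, 52 of the 68 calls were lost, without ATV-CD98hc pool 1 43, without ATV-TfR pool 2 29 and without ATV-CD98hc pool 2 6; Plvap, Esm1 and Igfbp3 were called in each of these 4 omissions. The number called in all was then 26, 49, 46 and 304.

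**Figure D4:**
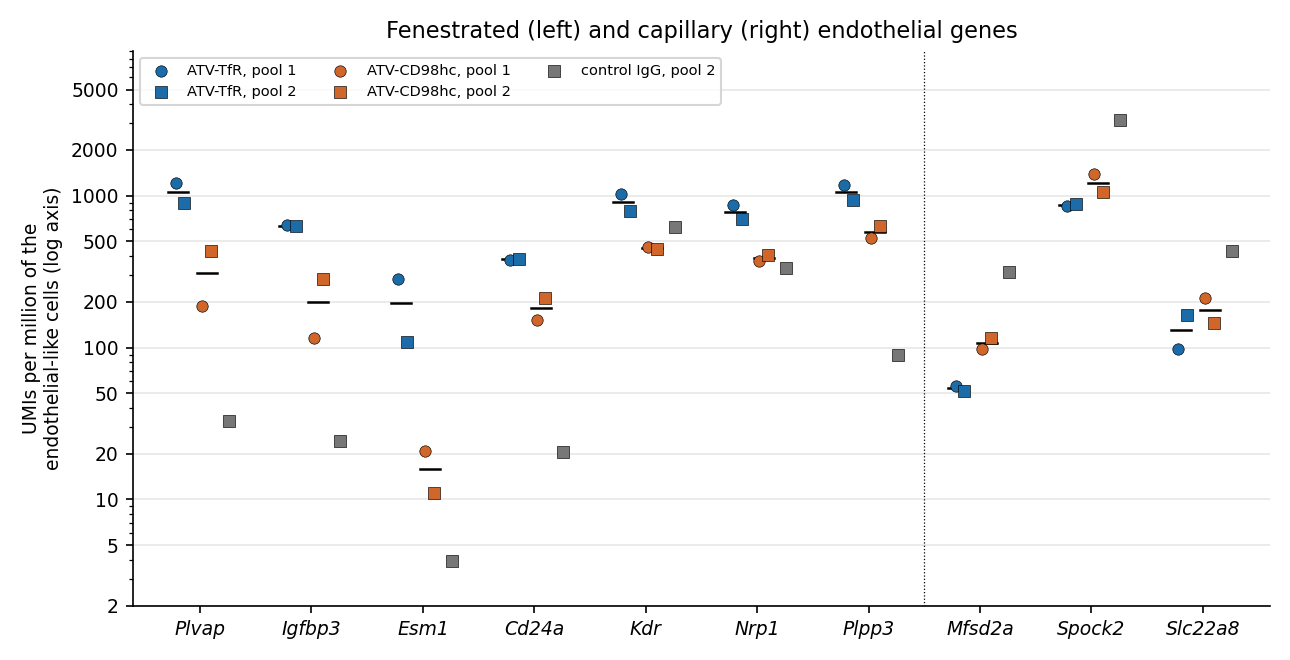
CPM of 7 fenestrated (left of the dotted line) and 3 capillary genes in endothelial-like cells, on a log axis, with 1 point per library and a bar at the mean of each vehicle's pools. Fenestrated genes lie higher in the ATV-TfR pools (Plvap 1221 and 902 against 187 and 433), and the control IgG library lies lowest for Plvap, Igfbp3, Esm1, Cd24a and Plpp3. Levels are those of the whole class, of which cluster 20 made up 97.25% in the control library.

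Of the 27 genes lower with ATV-TfR in endothelial-like cells, 20 had their highest level in astrocyte-like cells, where 8.994% of the genes tested have theirs. Gpc5, a glypican, stood at 12.6 and 12.3 CPM against 113 and 150 (edgeR log2 difference -3.32, adjusted p = 1.0e-06), and Slc1a2, the glial glutamate transporter, at 28.85 and 98.5 against 241 and 294 (-2.12, adjusted p = 5.6e-05). The Slc1a2 difference ran from -3.18 to -1.40 with 1 library left out and did not pass without ATV-TfR pool 1 (-1.40, edgeR adjusted p = 0.15), with DESeq2 (adjusted p = 0.71), with doublets kept, in cluster 20 alone (-0.57) or with animals as replicates (-0.66). The 8 astrocyte markers summed to 148 and 313 against 645 and 532 in this class, with 1 of the 8 at 0 in ATV-CD98hc pool 2. The ATV-CD98hc pools held more astrocyte-like cells, and the part of this was not tested. With doublets kept, Gpc5's difference was -1.04 (edgeR adjusted p = 0.57). Erythroid markers summed to 4670 CPM in ATV-CD98hc pool 1 and to 27.7 to 50.5 in the other 3 libraries.

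The same genes recurred across classes. Gpc5 was lower with ATV-TfR in 5 classes (oligodendrocyte-, pericyte-, smooth muscle-, choroid plexus epithelial- and endothelial-like), and the synaptic adhesion genes Adgrb3, Nlgn1 and Ntm in 4 each, all with their highest level in astrocyte-like cells. With doublets kept Gpc5 passed in pericyte-like cells (-1.27, edgeR adjusted p = 0.022) and no longer in the other 4 classes (-0.66 to -1.04), and Adgrb3 and Ntm were lost in 3 of their 4 classes and Nlgn1 in 2. With DESeq2 Adgrb3 and Nlgn1 passed in none of their 4 classes. Ptgds, the prostaglandin D2 synthase of meningeal fibroblasts and oligodendrocytes, was higher in 3, but with 1 pool far from its partner in 2 of them. In pericyte-like cells it stood at 562 and 79.9 CPM against 32.6 and 67.9 (edgeR log2 difference 2.73, adjusted p = 0.030), which fell to 0.73 (adjusted p = 1) without ATV-TfR pool 1. In endothelial-like cells it stood at 88.3 and 557 against 41.6 and 22.2 (3.185), which fell to 1.36 (edgeR adjusted p = 0.38) without ATV-TfR pool 2 and turned to -0.31 with doublets kept.

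Pericyte-like cells differed in 16 of 10211 genes (0.157%), 5 higher with ATV-TfR (0.049%) and 11 lower (0.108%). Smooth muscle-like cells differed in 33 of 10539 (0.313%), 3 higher (0.0285%) and 30 lower (0.285%). Thsd7a, a thrombospondin-domain protein of vessel and kidney (GRCm38 chr6:12311610-12749410), was higher with ATV-TfR in both mural classes. In smooth muscle-like cells it stood at 102 and 99.6 CPM against 33.6 and 10.1, with 153 in the control (2.03, SE 0.27, edgeR adjusted p = 5.3e-04, and 1.66 to 3.315 with 1 library left out). In pericyte-like cells it stood at 118 and 98.6 against 41.6 and 27.2, with 154 in the control (1.62, edgeR adjusted p = 0.0071; without ATV-TfR pool 1, 1.51, adjusted p = 0.23). In endothelial-like cells it overlapped, at 41.5 and 32.0 against 47.5 and 33.3.

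The contractile genes Acta2 and Tagln were higher with ATV-TfR in pericyte-like cells. Tagln stood at 92.8 and 48.7 against 16.85 and 11.9 CPM (edgeR log2 difference 2.28, adjusted p = 0.0047), and Acta2 at 104 and 58.7 against 31.4 and 22.1 (1.58, adjusted p = 0.029). Both calls were lost without ATV-TfR pool 1 (1.74 and 1.12), ATV-CD98hc pool 1 (2.59 and 1.89) or ATV-CD98hc pool 2 (2.14 and 1.43). The 8 smooth muscle markers as a whole summed to 1101 and 967 against 941 and 832 in this class, with smooth muscle-like cells themselves being more frequent in the ATV-TfR pools, and the part of this was not tested.

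Endothelial and astrocyte genes were among those lower with ATV-TfR in smooth muscle-like cells. In smooth muscle-like cells, 21 of the 30 lower genes had their highest level in astrocyte-like and 7 in endothelial-like cells, where 11.94% and 1127 of the 10539 genes tested have theirs. Cldn5, the tight junction claudin of endothelium, stood there at 2.99 and 1.58 against 28.0 and 27.0 CPM, with 75.6 in the control (-3.46, edgeR adjusted p = 1.2e-04). The 8 endothelial markers summed in smooth muscle-like cells to 19.02 and 13.44 against 106 and 155, with 1 of the 8 at 0 in ATV-TfR pool 2. The 8 astrocyte markers summed there to 412.5 and 613 against 663 and 721. In pericyte-like cells the endothelial markers summed to 166 and 134 against 273 and 306, while the astrocyte markers overlapped, at 912 and 1138 against 1055 and 1178. Without ATV-TfR pool 1, 25 of the 33 calls in smooth muscle-like and 13 of the 16 in pericyte-like cells were lost, and without ATV-CD98hc pool 1 16 and 12. The number called in all was 10 and 4 without ATV-TfR pool 1, 10 in pericyte-like cells without ATV-CD98hc pool 1, and 559 and 32 without ATV-CD98hc pool 2.

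Choroid plexus epithelial-like cells differed in 52 of 8266 genes (0.629%), 21 higher with ATV-TfR (0.254%) and 31 lower (0.375%), and 25 of the 31 had their highest level in astrocyte-like cells, where 10.92% of the genes tested have theirs. The higher genes included pericyte genes: Vtn, vitronectin, stood at 201 and 264 CPM against 31.6 and 48.1 (2.72, edgeR adjusted p = 2.4e-05). Rgs5, a pericyte G-protein regulator, had 154 UMIs with ATV-TfR and 1 with ATV-CD98hc, a ratio of 89.9 in CPM (exact 95% interval 15.9 to 3572, counting error only). The 8 pericyte markers summed to 414 and 402 in this class with ATV-TfR, to 39.7 and 54.1 with ATV-CD98hc and to 335 in the control, with 3 and 5 of the 8 at 0 in the ATV-CD98hc pools, and their part was not tested. No more than 1 of the 52 calls was kept when either ATV-TfR pool was left out (Vtn without ATV-TfR pool 2: 2.47, edgeR adjusted p = 0.97), and 171 genes were called without ATV-CD98hc pool 2.

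Fibroblast-like cells had 3 lower genes of 7328 (0.0409%) and ependymal-like cells 1 of 8028 (0.0125%). With 1 library left out these counts were 11 and 10 (ATV-TfR pool 1), 9 and 5 (ATV-TfR pool 2), 67 and 29 (ATV-CD98hc pool 1) and 58 and 243 (ATV-CD98hc pool 2), in either direction. No gene called in the main test of these classes had its highest level in its own class. Of the genes tested, 891 of 7328 (fibroblast-like) and 1949 of 8028 (ependymal-like) had theirs there. The ATV-CD98hc pools held 34 and 26 fibroblast-like and 32 and 31 ependymal-like cells. In fibroblast-like cells Clu, the secreted chaperone clusterin, stood at 36.4 and 33.0 CPM against 151 and 214, with 262 in the control (-2.36, edgeR adjusted p = 0.0062). With doublets kept its difference was -1.63 (edgeR adjusted p = 0.24). Dgkb, a diacylglycerol kinase, stood at 8.496 and 4.72 against 108 and 74.4 (-3.75, edgeR adjusted p = 0.0058); it was lost with doublets kept and without ATV-TfR pool 1 (-4.15), ATV-TfR pool 2 (-3.43) or ATV-CD98hc pool 1 (-3.48). In ependymal-like cells Trpm3, a cation channel, stood at 49.4 and 54.1 against 160 and 223 (-1.85, edgeR adjusted p = 0.020). This call was lost with DESeq2 (adjusted p = 0.14) and with animals as replicates (edgeR adjusted p = 0.16).

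For some genes outside the named-gene rule the ATV-CD98hc pools lay apart from both the ATV-TfR pools and the control in at least 1 class; they were chosen after their values were seen. G530011O06Rik, a non-coding transcript (GRCm38 chrX:169975043-169978917), stood in astrocyte-like cells at 1.68 and 1.14 CPM with ATV-TfR, at 1.13 in the control and at 17.9 and 32.7 with ATV-CD98hc (-4.13, SE 0.37, edgeR adjusted p = 5.1e-04). In microglia-like cells it stood at 37.6 and 61.7 against 89.0 and 148, with 30.3 in the control (-1.19, edgeR adjusted p = 0.28). Gm21860 (chrY:90754513-90754821) went the other way in astrocyte-like cells, at 32.7 and 28.0 with ATV-TfR, 23.1 in the control and 4.70 and 1.42 with ATV-CD98hc (3.12, edgeR adjusted p = 5.6e-04). Each library holds 1 male mouse. G530011O06Rik lies on X and Gm21860 on Y, and whether their reads could be told apart was not tested.

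Wdfy1, an endosomal adaptor of Toll-like receptor signalling (chr1:79702262-79776143), was higher with ATV-CD98hc in 2 classes. In oligodendrocyte-like cells it stood at 19.6 and 20.5 with ATV-TfR, 16.01 in the control and 37.6 and 56.9 with ATV-CD98hc (edgeR log2 difference -1.18, adjusted p = 0.035; lost without ATV-TfR pool 1, -1.14, and without ATV-CD98hc pool 2, -0.87). In pericyte-like cells it stood at 20.3 and 14.4 against 42.7 and 54.3 (-1.42, edgeR adjusted p = 0.041; lost without any of the 4 libraries, -1.71 to -1.23). It separated the pools in the same direction in 8 of the 9 classes, where 12.9 to 21.6% of all genes tested lay below in the same way, and overlapped in endothelial-like cells. In microglia-like cells the control lay with ATV-CD98hc, at 65.4 beside 72.6 and 66.6, and above 51.3 and 48.0 with ATV-TfR.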

How the data were processed

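Single-cell RNA of sorted mouse brain cells was measured in 23 libraries. The deposited counts are UMI counts per gene and barcode of all libraries, made by the authors with Cell Ranger 7.1.0 per the file headers; the submitters' processing notes also name Seurat 4 and 5 and mm10/GRCm38. A deposited index gave the library behind each barcode number.

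Kept barcodes (500 genes, 800 UMIs, at most 10% mitochondrial) passed Scrublet per library with its automatic threshold (3.12 to 5.77% removed in the 4 libraries, 7.50% in the control). Cells were clustered with scanpy 1.11.5 (2000 variable genes without Tfrc and Slc3a2, 50 components, 15 neighbours, Leiden resolution 1.0). A cluster was named where at least 0.5 of a list's 8 markers, and at least 3, were detected and its leading genes, taken against clusters of other best lists, did not favour another list; that reading of leading genes was decided after seeing the data. Cells per class (offset: kept cells) and UMIs summed per class and library (TMM, filterByExpr) were tested with edgeR 4.0.16's quasi-likelihood test, with Benjamini-Hochberg adjustment over classes or over all genes tested in the class. SE is that of the log2 difference; called means an adjusted p below 0.05.

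Named genes are Tfrc and Slc3a2; per class, the called, non-overlapping genes with at least 50 CPM in the higher group and the 5 (4 largest classes) or 2 largest rises and falls; the 8 genes called in most classes; and called members of fixed lists. Members and lists were chosen with earlier results of these data known. Coordinates are of GRCm38 (GENCODE M21), which matched 53 of the 54 named genes. Alternatives were DESeq2 1.42.0, other scalings, filters, doublets kept, the largest cluster, animals split by sex-specific RNA, the pool number as a block and each library left out. The split into animals counts the male and the female mouse of a library as independent, although they share that library. How exonic and intronic reads were counted is not given in the sources used here. The values of 1 named gene are not reported here.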

Additional observations from a re-analysis of the deposited data

Results flagged for a closer look

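For Gpc5 in choroid plexus epithelial-like cells the difference between vehicles was called as unequal between the sexes, on few cells. Splitting each pool into its male and its female mouse, the difference ATV-TfR minus ATV-CD98hc was lower in males by 4.98 on the log2 scale (male minus female -4.98, SE 0.81, adjusted p = 0.0071, edgeR's interaction test), the 1 gene called over the 9 classes. The female mice of the ATV-TfR pools stood at 274 and 160 CPM and the males at 5.17 and 3.13. With ATV-CD98hc the females stood at 223 and 298 and the males at 254 and 49.97. These values rest on 5 to 14 female and 7 to 40 male cells per library. The class held 155 and 118 cells in the ATV-TfR pools and 144 and 45 in the ATV-CD98hc pools, so most were given no sex. The level of Gpc5 was highest in astrocyte-like cells, and it was lower with ATV-TfR in 5 classes. The part of astrocyte RNA in these values was not tested.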

How the results depend on the processing

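Leaving out 1 library at a time moved the number of classes that differed in share between 0 and 6 (main 6), and the number of genes called over the 9 classes between 174 (without ATV-TfR pool 1) and 2227 (without ATV-CD98hc pool 2), against 270; the lone library is then assumed to vary like the other group's. Other counts of genes called were 104 with DESeq2, 919 with no filter on low counts and 126 with at least 50 UMIs in each library of 1 group. Shares whose log2 difference changed sign were those of pericyte-like (-0.13 outside the astrocyte-like class, -0.24 with TMM factors), oligodendrocyte-like (-0.58 and -0.69) and T or NK cell-like cells (-0.10 with TMM factors). So did 2 that lay near 0 in the main test. Choroid plexus epithelial-like cells turned to -0.75 and -0.86 in those 2 settings, where they passed as lower with ATV-TfR. They also turned to -0.02 at Leiden resolution 2, -0.10 in female cells and -0.28 without ATV-CD98hc pool 2. Endothelial-like cells lay between 0.0043 and 0.15 in 7 settings, among them 0.15 without shallow clusters. Outside the astrocyte-like class (-0.80) and with TMM factors (-0.91) they passed as lower with ATV-TfR. In endothelial-like cells Ptgds turned to -0.31 with doublets kept and Nrp1 to -0.11 in cluster 20 alone. Of 83 named calls, 38 held with DESeq2, 49 with doublets kept, 39 of 64 with animals as replicates and 80 without 4 shallow clusters, an alternative chosen after seeing the data. The share tests passed 7 classes there. Small classes limit depth: 58 to 128 endothelial-like cells per library.

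With the pool number as a replicate block, 700 genes and 5 of the shares were called (pericyte-like cells lost, adjusted p = 0.12, edgeR), and each of the 83 named calls held. The labels do not say whether same-numbered pools shared anything beyond the number. The correlation of their deviations ran from -0.0037 to 0.32 over the 9 classes and was highest in oligodendrocyte-like cells. With 2 pairs this cannot decide whether they were paired, so the block is not read as a pairing.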

Other observations

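Heat shock and chaperone genes, which fold stressed proteins, mostly lay higher with ATV-TfR in oligodendrocyte-like, microglia-like and ependymal-like cells. Both ATV-TfR pools lay above both ATV-CD98hc pools for 10 of 11 such genes in oligodendrocyte-like cells (11.7% of all genes), for 9 of 11 in microglia-like cells (15.2%) and for 9 of 11 in ependymal-like cells (18.9%), with median log2 differences of 0.39, 0.35 and 0.56. In astrocyte-like cells it was 4 of 10 (14.9%), with a median of 0.17. The pericyte-like count was 8 of 11 (14.3%), the smooth muscle-like 7 of 11 (14.8%), the fibroblast-like 7 of 9 (20.7%), the endothelial-like 4 of 9 (18.9%) and the choroid plexus epithelial-like 3 of 9 (15.8%). No difference between the list and other genes was tested. Hspa1a in oligodendrocyte-like cells was the 1 gene that passed in these 9 classes, a call lost in 3 of the 4 omissions of 1 library. Dnajb1, a co-chaperone, stood at 34.6 and 31.0 against 18.4 and 28.4 CPM in oligodendrocyte-like cells (0.58, edgeR adjusted p = 0.71) and at 32.8 and 34.3 against 22.5 and 26.6 in microglia-like cells.

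Mitochondrially encoded genes, subunits of the respiratory chain, lay lower with ATV-TfR in 6 of 13 cases in astrocyte-like (median log2 difference -0.28), 4 of 13 in microglia-like (-0.24), 5 of 13 in oligodendrocyte-like (-0.19), 8 of 12 in endothelial-like (-0.45) and 9 of 13 in ependymal-like cells (-0.46). Of all genes tested, 16.2%, 14.9%, 16.1%, 18.1% and 21.5% lay lower in the same way. The count was 8 of 13 in pericyte-like (12.9% of all genes), 7 of 13 in smooth muscle-like (19.2%) and 7 of 13 in fibroblast-like cells (14.5%). In choroid plexus epithelial-like cells none lay lower and 4 of 13 lay higher (15.8%), with mt-Atp8 passing as higher; no other such gene was called by edgeR in the 9 classes.

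Cluster 14, left unnamed because markers of dividing cells, neurons and immature neurons tied in it (Top2a, Nrg3 and Sox11 among its leading genes), held 0.402% and 0.345% of the ATV-TfR pools, 0.699% and 2.23% of the ATV-CD98hc pools and 0.373% of the control library. Among astrocyte-like genes chosen after their values were seen, Car14, a membrane carbonic anhydrase, stood at 41.4 and 33.5 CPM with ATV-TfR against 14.8 and 13.5 (1.39, edgeR adjusted p = 0.0028), and its highest level was in oligodendrocyte-like cells.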
